A study of Arabidopsis thaliana with 15 samples.

Results

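Whole 2-week-old Arabidopsis thaliana seedlings of ecotype Col-0 that had been given 1 µM cercosporin were compared with untreated seedlings of the same ecotype and age. The comparison used 3 libraries on each side, 6 of the 15 in the series, and 10374 of the 14190 genes in the count table passed the filter on low counts. The other 9 libraries were 3 each at 0.1, 10 and 100 µM. Seedlings of every group were grown on sucrose medium and first equilibrated in water. Treated seedlings spent 1 h in toxin solution without light, were washed 3 times, and then received light of 30 µE for 30 min. The untreated plates were kept lit throughout, so the toxin, the dark hour and the washes cannot be told apart in a comparison with them. The labels do not say whether controls were moved or washed, or whether the replicates of a group are separate cultures. The tests below therefore weigh differences only against the spread among these libraries, some or all of which may be technical.

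Cercosporin is a photosensitizing toxin of Cercospora fungi that passes light energy to oxygen and so forms singlet oxygen. In leaves the light-harvesting proteins bind chlorophyll and feed light energy to the photosystems, and the transcripts of their genes follow light and plastid state. Jasmonate is a wound and defence hormone made from plastid fatty acids by lipoxygenases, allene oxide synthase and cyclase and OPDA reductase, coupled to isoleucine to become active, and oxidised by CYP94 enzymes. Both gene groups are discussed below beside heat shock, ERF and singlet oxygen genes.

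The controls held 1689357 to 2243950 counts and the 1 µM libraries 834190 to 3061276. Replicate 2 of 1 µM was the smallest library and stood apart on the first principal component of these 6 libraries, at 51.4 against -14.6 to -3.23 for the others. Control replicate 2 stood apart on the second component, at 41.8 against -20.9 to 1.34, and it alone among the 6 has a sample code starting with 8, the others starting with 7. CPM below are counts scaled to a common library total. Pearson correlations of log2 CPM, taken over genes that are not independent of each other, were 0.953 to 0.966 among controls, 0.945 to 0.97 at 1 µM and 0.94 to 0.968 between both groups. Organelle transcripts took like shares on both sides, with chloroplast genes at 0.451% to 0.49% of counts in controls and 0.453% to 0.559% at 1 µM. Markers of both root and shoot were detected. The 14 root markers tested, of 18 listed, summed to 239, 295 and 289 CPM in the controls and to 417, 306 and 437 CPM at 1 µM, so the root sum was higher in every treated library. The 8 shoot epidermis and guard cell markers tested, of 10, summed to 2130 to 2840 CPM in controls and 2140 to 2420 CPM at 1 µM. The part of the root markers' difference in the results below was not tested.

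At 1 µM, 19 genes differed from the controls (edgeR's quasi-likelihood test, Benjamini-Hochberg adjusted p under 0.05 over all genes tested). Of these, 5 were higher, 0.0482% of the genes tested, and 14 were lower, 0.135%. The 5 that rose were 4 light-harvesting genes and an aquaporin gene. Among the 14 that fell, 3 make jasmonate, 2 stand on the jasmonate breakdown list, 2 encode DREB-type transcription factors and 1 is a chloroplast starch-degrading enzyme. A gene is called higher or lower below only where it passed this test, and changes are log2 estimates of that fit ± SE. Across all genes tested the median log2 change was 0.002, and 662 genes had an unadjusted p under 0.05. The 3 libraries of each side did not overlap for any of the 19, which choosing genes by this test favours. Over all genes tested, all 3 treated libraries lay above all 3 controls for 6.18% of genes and below them for 7.23%.

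**Figure D1:**
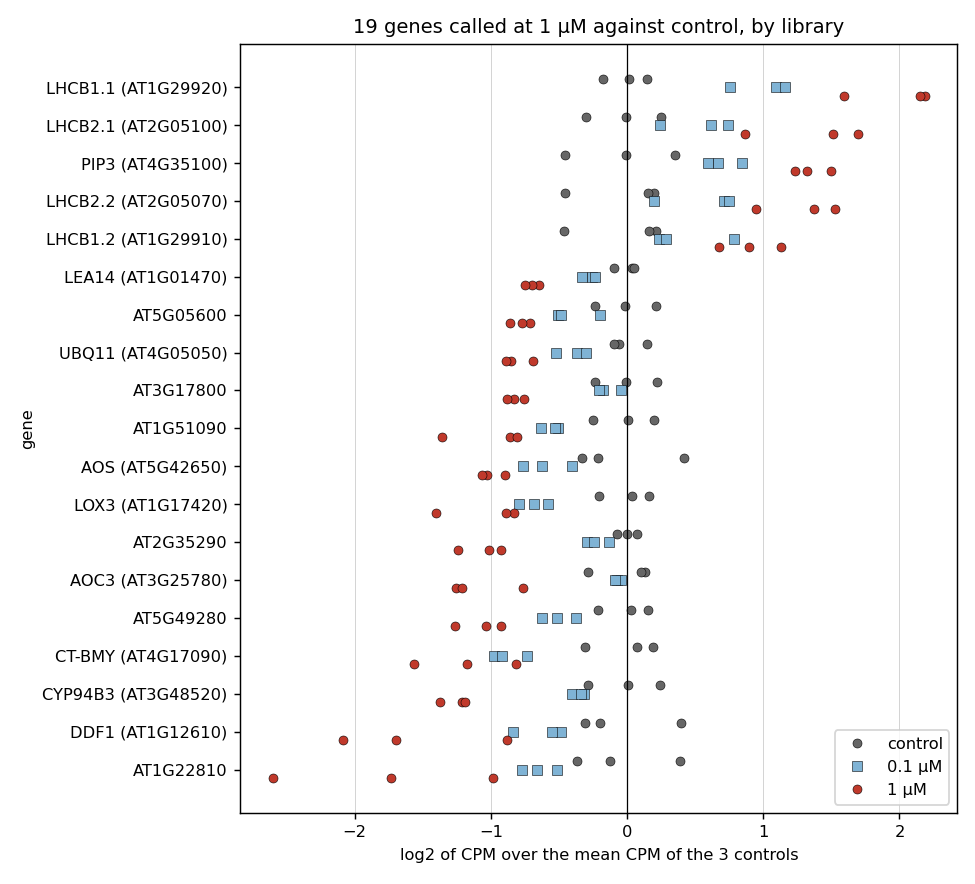
Each row is a called gene; the x axis gives log2 of the CPM in each library over the mean CPM of the 3 controls, with controls grey, 0.1 µM blue squares and 1 µM red. The red points of every gene lie beyond its grey points, and LHCB1.1 is farthest to the right, at 3150, 2090 and 3070 CPM against 612 to 765 CPM in controls.

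Light-harvesting genes were 4 of the 5 that rose. LHCB1.1 (AT1G29920), which encodes a protein of the main photosystem II antenna, was at 700, 612 and 765 CPM in the controls and at 3150, 2090 and 3070 CPM at 1 µM. Every treated library lay above every control. Its mean rose from 692 ± 76.5 to 2770 ± 590 CPM (SD, n = 3), a log2 change of 2.00 ± 0.21 (edgeR adjusted p = 0.000166). Of the 19 genes it was the only one that passed the test whichever of the 6 libraries was left out, with edgeR adjusted p between 9.04e-05 and 0.00306.

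LHCB2.1 (AT2G05100), of the same antenna, was at 131, 107 and 157 CPM in the controls and at 376, 241 and 427 CPM with toxin. Its near-copy LHCB2.2 (AT2G05070) was at 165, 105 and 160 CPM and at 373, 278 and 414 CPM. In both genes the shallow replicate 2 of 1 µM gave the lowest treated value, and control replicate 2 the lowest control value. The log2 changes were 1.41 ± 0.21 for LHCB2.1 and 1.31 ± 0.20 for LHCB2.2. Leaving out single libraries kept LHCB2.1 past the threshold in 4 of 6 fits and LHCB2.2 in 3 of 6. LHCB1.2 (AT1G29910) was at 4000, 2510 and 3870 CPM in controls and 7560, 5530 and 6430 CPM at 1 µM, a log2 change of 0.91 ± 0.18 (edgeR adjusted p = 0.0491), and passed in 0 of 6 such fits.

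These 4 genes share long stretches with their copies, which limits what a 3'-end count can assign. The last 90 coding bases, up to and including the stop codon, show how close the copies are. They are read 5′ to 3′ on the coding strand from the RefSeq genome (TAIR10.1), and capitals mark bases that differ from the first gene of each family, so the first carries none.
LHCB1.1: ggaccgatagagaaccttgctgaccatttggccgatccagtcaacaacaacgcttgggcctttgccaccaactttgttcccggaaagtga
LHCB1.2: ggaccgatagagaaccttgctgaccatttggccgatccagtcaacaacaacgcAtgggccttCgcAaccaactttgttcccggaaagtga
LHCB1.3: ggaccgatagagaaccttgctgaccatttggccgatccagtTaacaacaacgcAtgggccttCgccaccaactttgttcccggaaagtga
LHCB2.1: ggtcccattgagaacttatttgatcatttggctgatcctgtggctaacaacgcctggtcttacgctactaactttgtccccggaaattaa
LHCB2.2: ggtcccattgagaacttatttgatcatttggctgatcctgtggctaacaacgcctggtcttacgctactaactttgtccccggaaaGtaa
These stretches lie at chr1:10475089-10475178 (minus strand), chr1:10472443-10472532 (minus), chr1:10478785-10478874 (plus), chr2:1823449-1823538 (minus) and chr2:1799436-1799525 (minus). LHCB1.2 and LHCB1.3 each differ from LHCB1.1 at 3 of the 90 bases, and LHCB2.2 differs from LHCB2.1 at 1. Over the whole coding sequence, LHCB1.1 and LHCB1.2 are identical at 769 of 804 bases (95.6%), LHCB1.1 and LHCB1.3 at 773 (96.1%), and LHCB2.1 and LHCB2.2 at 771 of 798 (96.6%). The genome build used for the counts is not given in the sources used here, so these positions are those of the reference and not of the count table.

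Counts summed over copies do not depend on which of the summed copies a read was given to. Whether reads that fit several copies were counted is not known here, so such reads may be missing from the sums. LHCB2.1 and LHCB2.2 together were at 292.5, 213.4 and 319.3 CPM in controls and 747.7, 523 and 846.6 CPM at 1 µM. That sum rose by a log2 change of 1.36 ± 0.20 (edgeR adjusted p = 0.00993). The 5 LHCB1 genes together were at 26520 to 38040 CPM in controls and 38590 to 52720 CPM at 1 µM. All 3 treated sums lay above the highest control, but by little in replicate 2, and the log2 change of 0.47 ± 0.16 did not pass (edgeR adjusted p = 0.431). LHCB1.1 took 1.82% to 2.32% of the family's counts in controls and 5.45% to 6.25% at 1 µM (n = 3 each). LHCB1.3 (AT1G29930), the neighbour of LHCB1.1 in the genome, was at 14800, 9780 and 14900 CPM in controls and at 15300, 12300 and 13800 CPM at 1 µM, so its groups overlapped. Its log2 change was 0.07 ± 0.16, with a sign that turned when control replicate 2 or 1 µM replicate 1 was left out.

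**Figure D2:**
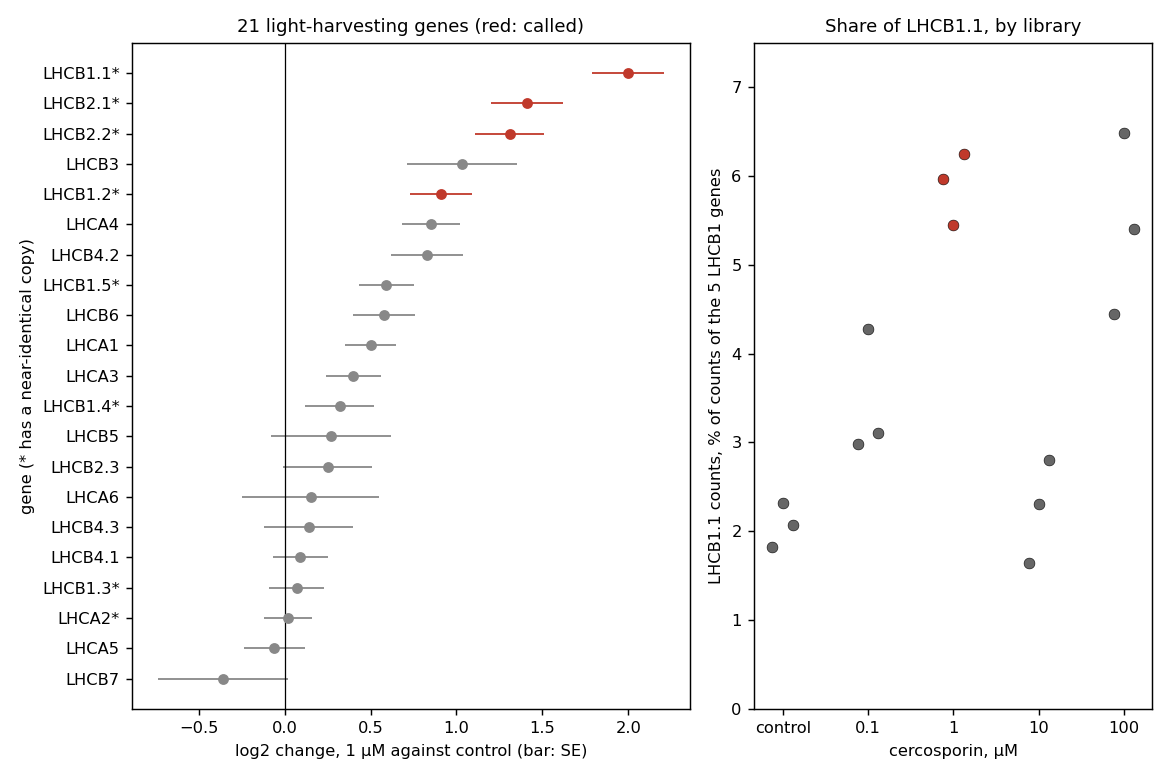
Left, log2 change ± SE at 1 µM for the 21 light-harvesting genes, with called genes in red and genes that have a near-identical copy starred; right, LHCB1.1 as a percent of the counts of the 5 LHCB1 genes in each library. In 19 of the 21 genes the estimate lies above 0, and the share is 5.45% to 6.25% at 1 µM against 1.82% to 2.32% in controls.

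All 21 genes of the light-harvesting list passed the filter. Of these, 4 rose and 0 fell, 19 had an estimate above 0, and in 11 all 3 treated libraries lay above all 3 controls. Over all genes tested, 6.18% lay above in this way. The median log2 change was 0.40 over the list, 0.56 without 1 µM replicate 2 and 0.41 without control replicate 2. Among those that missed the threshold, LHCB3 (AT5G54270), another antenna protein of photosystem II, was at 482 to 591 CPM in controls and 919 to 1370 CPM at 1 µM (log2 change 1.03 ± 0.32). LHCA4 (AT3G47470), an antenna protein of photosystem I, was at 1660 to 2300 CPM and 2770 to 4300 CPM (0.85 ± 0.17, edgeR adjusted p = 0.0512). LHCB4.2 stood at a log2 change of 0.83 ± 0.21, LHCB1.5 at 0.59 ± 0.16, LHCB6 at 0.58 ± 0.18 and LHCA1 at 0.50 ± 0.15.

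Among genes of the photosystem cores and of electron transport, 0 of 29 were called, 28 had an estimate above 0 and the median log2 change was 0.16. That median was 0.03 without control replicate 2, 0.34 without control replicate 1 and 0.26 without 1 µM replicate 2. PSAF, a photosystem I subunit, had the smallest p of that list, at a log2 change of 0.69 ± 0.23. In the chlorophyll synthesis list 0 of 14 tested members, of 17, were called, and 13 had an estimate above 0. Their median log2 change was 0.50, and 7 of the 14 did not overlap between the groups, all of them higher at 1 µM. All treated libraries lay above all controls in 6.18% of all genes tested. The median was 0.37 without control replicate 2 and 0.36 without 1 µM replicate 3. CHLH, the magnesium chelatase subunit that starts the chlorophyll branch, was at 158, 128 and 139 CPM in controls and 241, 186 and 284 CPM at 1 µM (0.75 ± 0.19). The geranylgeranyl reductase gene AT1G74470 stood at 0.53 ± 0.16 and PORB, a protochlorophyllide reductase, at 0.59 ± 0.21. Of 16 Calvin cycle genes 0 were called. Their median log2 change of -0.03 had no stable sign, at -0.16 without control replicate 2, 0.11 without control replicate 1 and 0 without 1 µM replicate 2.

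The 250 bases before the annotated start are shown for 3 neighbouring LHCB1 genes whose coding ends are alike but whose estimates at 1 µM ranged from 2.00 to 0.07, and capitals mark matches to the motifs searched. Each is read 5′ to 3′ on the strand of its gene from RefSeq TAIR10.1.
LHCB1.1, chr1:10475970-10476219, minus strand: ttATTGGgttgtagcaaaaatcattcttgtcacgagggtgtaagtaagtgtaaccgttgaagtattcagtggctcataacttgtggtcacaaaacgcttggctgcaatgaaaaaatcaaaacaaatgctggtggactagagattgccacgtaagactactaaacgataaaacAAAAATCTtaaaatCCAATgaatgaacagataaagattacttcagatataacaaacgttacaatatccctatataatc
LHCB1.2, chr1:10473503-10473752, minus strand: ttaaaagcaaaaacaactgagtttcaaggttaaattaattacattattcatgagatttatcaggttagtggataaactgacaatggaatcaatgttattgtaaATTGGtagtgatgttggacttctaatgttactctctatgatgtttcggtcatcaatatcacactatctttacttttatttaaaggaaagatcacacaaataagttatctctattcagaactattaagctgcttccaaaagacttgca
LHCB1.3, chr1:10477635-10477884, plus strand: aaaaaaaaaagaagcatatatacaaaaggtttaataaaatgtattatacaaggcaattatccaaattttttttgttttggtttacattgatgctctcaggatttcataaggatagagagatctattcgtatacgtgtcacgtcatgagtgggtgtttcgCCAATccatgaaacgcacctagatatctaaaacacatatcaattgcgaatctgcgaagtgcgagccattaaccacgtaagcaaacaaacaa
The motifs searched on both strands were the G-box CACGTG, the GCC-box GCCGCC, the W-box TTGAC, the DRE core CCGAC, the I-box core GATAAG, the evening element core AATATCT, the heat shock element GAANNTTC, the CCAAT box and a CCA1 binding site, AAAAATCT. LHCB1.1 holds 2 CCAAT boxes and 1 CCA1 site, and LHCB1.2 and LHCB1.3 hold 1 CCAAT box each. The CCAAT box was found in 5 of the 5 genes called higher, in 19 of the 21 light-harvesting genes, in 6 of the 14 called lower, and in 46.0% of all 27443 windows. The 5 called higher and the 21 share 4 genes, near-copies among them, so these counts are not separate. LHCB1.3 holds the CCAAT box as well, with an estimate near 0. The CCA1 site was found in 6.69% of all windows and the W-box in 44.9%.

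The remaining gene that rose was PIP3 (AT4G35100), a water channel of the plasma membrane. It was at 11.1, 6.34 and 8.64 CPM in the controls and at 24.5, 21.7 and 20.4 CPM at 1 µM, so the treated libraries lay close together above all controls. The log2 change was 1.33 ± 0.26 (edgeR adjusted p = 0.0488), and in none of the 6 fits that left out a library did it pass, with adjusted p from 0.0589 to 0.228. Of the 18 aquaporin genes tested, of 19, PIP3 was the 1 called, 15 had an estimate above 0, and the median log2 change was 0.26. That median was 0.40 without 1 µM replicate 2 and 0.13 without 1 µM replicate 3. PIP1A stood at 0.52 ± 0.16.

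In the jasmonate group the calls were all falls. Of 15 synthesis genes tested, of 17 listed, 3 were called lower and 0 higher, with a median log2 change of -0.52 that was -0.46 without 1 µM replicate 2 and -0.52 without control replicate 2. In 8 of the 15 all treated libraries lay below all controls, where 7.23% of all genes did. LOX3 (AT1G17420), a lipoxygenase of the first step, was at 154, 183 and 199 CPM in controls and 100, 67.4 and 96.2 CPM at 1 µM (log2 change -1.0 ± 0.18, edgeR adjusted p = 0.0327). AOS (AT5G42650), the allene oxide synthase of the second step, was at 519, 562 and 871 CPM and at 350, 319 and 312 CPM (-0.99 ± 0.20). The control spread of AOS came from replicate 3, while its treated libraries lay within 312 to 350 CPM.

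AOC3 (AT3G25780), one of the allene oxide cyclases that follow, was at 215, 287 and 282 CPM in controls and 154, 110 and 113 CPM at 1 µM. Its log2 change was -1.06 ± 0.17 (edgeR adjusted p = 0.0137). Its relatives AOC1 (-0.86 ± 0.21) and AOC2 (-0.77 ± 0.20) missed the threshold, as did the lipoxygenase genes LOX2 (-0.84 ± 0.31) and LOX4 (-0.75 ± 0.21). OPR3, the OPDA reductase, was at 156, 205 and 249 CPM and at 138, 130 and 155 CPM (-0.52 ± 0.17). Each of these 5 genes had all treated libraries below all controls, where 7.23% of all genes tested did. None of the 3 called genes passed in more than 2 of the 6 fits that left out a library.

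Of 9 jasmonate breakdown genes tested, of 10 listed, 2 were called lower, and the estimate was below 0 for all 9, with a median log2 change of -0.78. That median was -0.59 without control replicate 2 and -0.88 without control replicate 1. CYP94B3 (AT3G48520), which hydroxylates the active jasmonate, was at 198, 168 and 137 CPM in controls and 72.3, 73.2 and 64.5 CPM at 1 µM. Its mean fell from 167 ± 30.5 to 70 ± 4.73 CPM (SD, n = 3), a log2 change of -1.26 ± 0.17 (edgeR adjusted p = 0.00268), and it passed in 5 of the 6 fits that left out a library. AT5G05600, annotated as an oxygenase that uses 2-oxoglutarate and iron, was at 408, 558 and 475 CPM and at 293, 265 and 282 CPM (-0.78 ± 0.15). CYP94C1, the next oxidase of the pathway, stood at -0.67 ± 0.18 and CYP94B1 at -1.02 ± 0.32, neither past the threshold.

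Of 15 jasmonate signalling genes tested, of 21, 0 were called, 10 estimates lay below 0 and 5 above, and the median log2 change was -0.24, or -0.13 without control replicate 3. JAZ5, a repressor that jasmonate itself induces, was at 46.6, 49.6 and 30.8 CPM in controls and 28.7, 19.4 and 9.59 CPM at 1 µM (-1.20 ± 0.31). ORA59, an ERF factor of jasmonate and ethylene defence, went the other way (0.80 ± 0.31). MYC2, the main transcription factor of the pathway, was at 47.8 ± 1.74 CPM in controls and 42.2 ± 4.44 CPM with toxin (SD, n = 3; -0.19 ± 0.22).

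**Figure D3:**
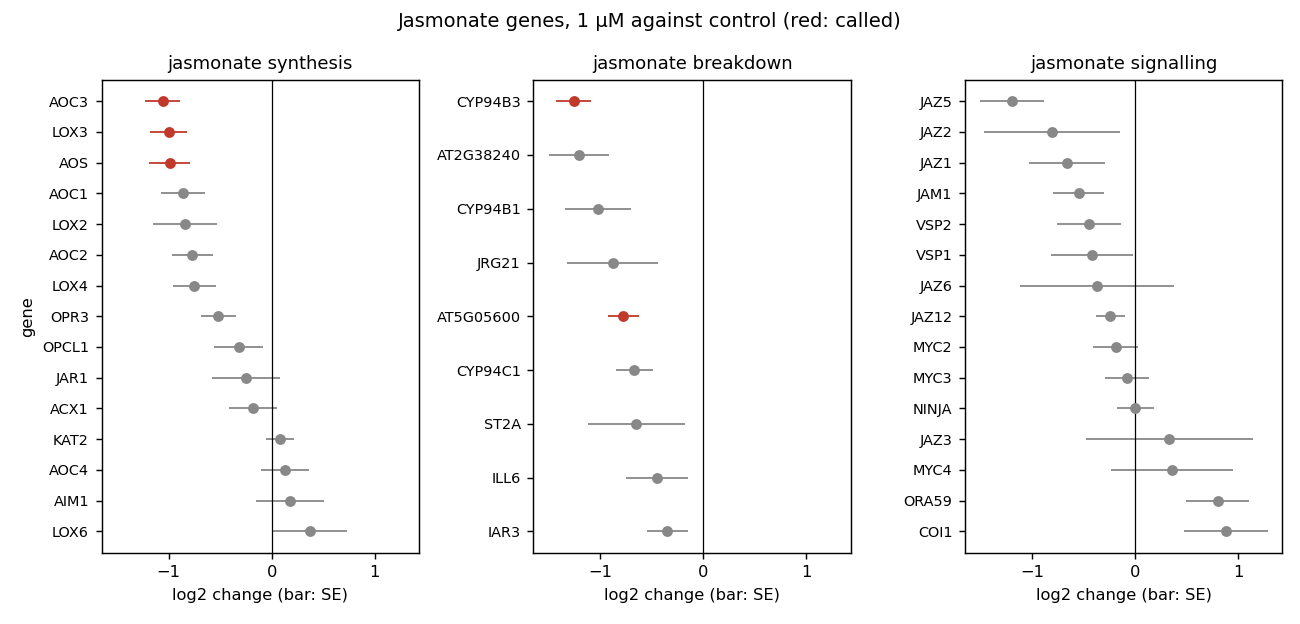
Log2 change ± SE at 1 µM for the tested jasmonate genes, in panels for synthesis (15 genes), breakdown (9) and signalling (15), with called genes in red. Breakdown genes all lie left of 0, synthesis genes mostly do (11 of 15), and signalling genes spread on both sides.

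The windows before AOS and CYP94B3 are shown because both genes were called lower, the one in jasmonate synthesis and the other in its breakdown.
AOS, chr5:17099596-17099845, minus strand: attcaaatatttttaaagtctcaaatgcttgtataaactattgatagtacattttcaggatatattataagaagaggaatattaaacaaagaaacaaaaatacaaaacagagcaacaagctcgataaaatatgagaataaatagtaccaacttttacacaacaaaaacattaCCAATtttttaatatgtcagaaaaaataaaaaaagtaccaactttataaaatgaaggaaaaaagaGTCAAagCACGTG
CYP94B3, chr3:17976775-17977024, minus strand: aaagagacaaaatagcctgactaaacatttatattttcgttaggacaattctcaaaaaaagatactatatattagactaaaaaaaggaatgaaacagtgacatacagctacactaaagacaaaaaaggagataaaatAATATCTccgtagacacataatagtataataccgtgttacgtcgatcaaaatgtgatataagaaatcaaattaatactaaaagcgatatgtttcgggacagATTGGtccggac
AOS holds a G-box, a motif bound by MYC2 among other factors, starting 6 bases before its start, with a W-box and a CCAAT box. CYP94B3 holds an evening element core and a CCAAT box. The G-box was found in 1 of the 14 genes called lower and in 6.49% of all windows, and the evening element core in 4 of the 14 and in 10.0%.

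Transcription factor genes were among the largest falls. AT1G22810, which the annotation places in the integrase-type DNA-binding superfamily, that of the ERF and DREB factors, was at 33.2, 47.3 and 28.1 CPM in controls and 5.97, 18.3 and 10.9 CPM at 1 µM (log2 change -1.73 ± 0.34, edgeR adjusted p = 0.0491). DDF1 (AT1G12610), a DREB-type factor of stress responses, was at 96.9, 59.4 and 64.2 CPM and at 22.7, 40 and 17.3 CPM (-1.57 ± 0.31). In both genes the groups were separate and 1 µM replicate 2 was the treated library nearest to the controls. Of 21 tested ERF and DREB genes, of 28, 2 fell, 0 rose and the median log2 change was -0.47. That median was -0.30 without control replicate 2 and -0.13 over the members with a mean of at least 50 counts. ERF13 stood at -1.37 ± 0.30, ERF105 at -0.85 ± 0.24 and ERF4 at -0.49 ± 0.13. Among ZAT, AZF and WRKY genes 0 of 18 were called, with a median of -0.39 that was -0.25 without 1 µM replicate 2 and -0.25 without control replicate 2. These genes summed to 2780 CPM in control replicate 2, against 1690 and 1930 CPM in the other controls and 1850, 1510 and 1690 CPM at 1 µM, and the part of that library in the median was not tested further. WRKY48 stood at -0.99 ± 0.25 and ZAT10 at -0.69 ± 0.22.

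The singlet oxygen markers are genes known to rise in the flu mutant, which makes singlet oxygen in its plastids after a shift from dark to light. All 16 were tested, 1 fell, LOX3, and 0 rose, and 15 of the 16 estimates lay below 0. The median log2 change was -0.48, and it was -0.31 without 1 µM replicate 2 and -0.21 without control replicate 2, the library in which these markers were highest in sum, at 2510 CPM against 1620 and 1720 CPM in the other controls. The 1 µM libraries summed to 1550, 1110 and 1320 CPM. BAP1, a calcium-binding inhibitor of cell death, stood at -0.77 ± 0.25. The touch and calcium list had 0 of 9 called and a median of -0.39, with the calmodulin-like gene CML37 at -1.33 ± 0.36.

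Of 20 heat shock genes tested, of 28, 0 were called, 17 had an estimate below 0 and the median log2 change was -0.75. It was -0.67 without 1 µM replicate 2 and -0.80 without control replicate 2. In 10 of the 20 all treated libraries lay below all controls, and in 0 above. Over all genes tested, 7.23% lay below in this way and 6.18% above. HSP70 (AT3G12580), a heat-inducible chaperone of the cytosol, was at 207, 285 and 148 CPM in controls and 73.5, 58.3 and 123 CPM at 1 µM (-1.29 ± 0.27). AT1G53540, annotated as an HSP20-like chaperone, was at 12.5, 17.3 and 17.3 CPM and at 1.79, 5.71 and 5.11 CPM (-1.89 ± 0.39). HSP101, which dissolves protein aggregates, stood at -1.08 ± 0.29. Among phenylpropanoid and flavonoid genes, 0 of 17 tested were called, 16 had an estimate below 0 and the median was -0.56. PAL2, which opens that pathway, stood at -0.74 ± 0.28 and HCT, of lignin synthesis, at -0.42 ± 0.15.

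The other falls were spread over several functions. CT-BMY (AT4G17090), a chloroplast beta-amylase that releases maltose from starch, was at 493, 348 and 455 CPM in controls and 191, 146 and 246 CPM at 1 µM (-1.14 ± 0.21, edgeR adjusted p = 0.0409). It was the 1 called of 15 starch genes tested, whose median log2 change was -0.27, or -0.15 without 1 µM replicate 1 and -0.07 without control replicate 3. UBQ11 (AT4G05050), a polyubiquitin gene, was at 3060, 3520 and 2980 CPM and at 1760, 1970 and 1720 CPM (-0.81 ± 0.15). LEA14 (AT1G01470), of the late embryogenesis abundant proteins, was at 1900, 1730 and 1920 CPM and at 1180, 1140 and 1100 CPM (-0.70 ± 0.14). In UBQ11 and LEA14 the treated libraries lay within a narrow range below all controls.

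AT5G49280, of the hydroxyproline-rich glycoprotein family, was at 242, 222 and 187 CPM in controls and at 114, 106 and 90.4 CPM at 1 µM (-1.07 ± 0.17). AT2G35290, annotated as uncharacterized, was at 306, 291 and 276 CPM and at 144, 153 and 123 CPM (-1.06 ± 0.17). Both were separate between the groups by more than the range within either. AT1G51090, of a heavy metal transport and detoxification family, fell by 0.98 ± 0.19 on the log2 scale. AT3G17800, with a domain of unknown function, fell by 0.83 ± 0.15. The 3' ends of AT1G22810, CT-BMY and AT3G17800 lie inside a gene on the opposite strand in the reference. Whether counting used strand is not given in the sources used here, so reads of such neighbours may be included.

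**Figure D4:**
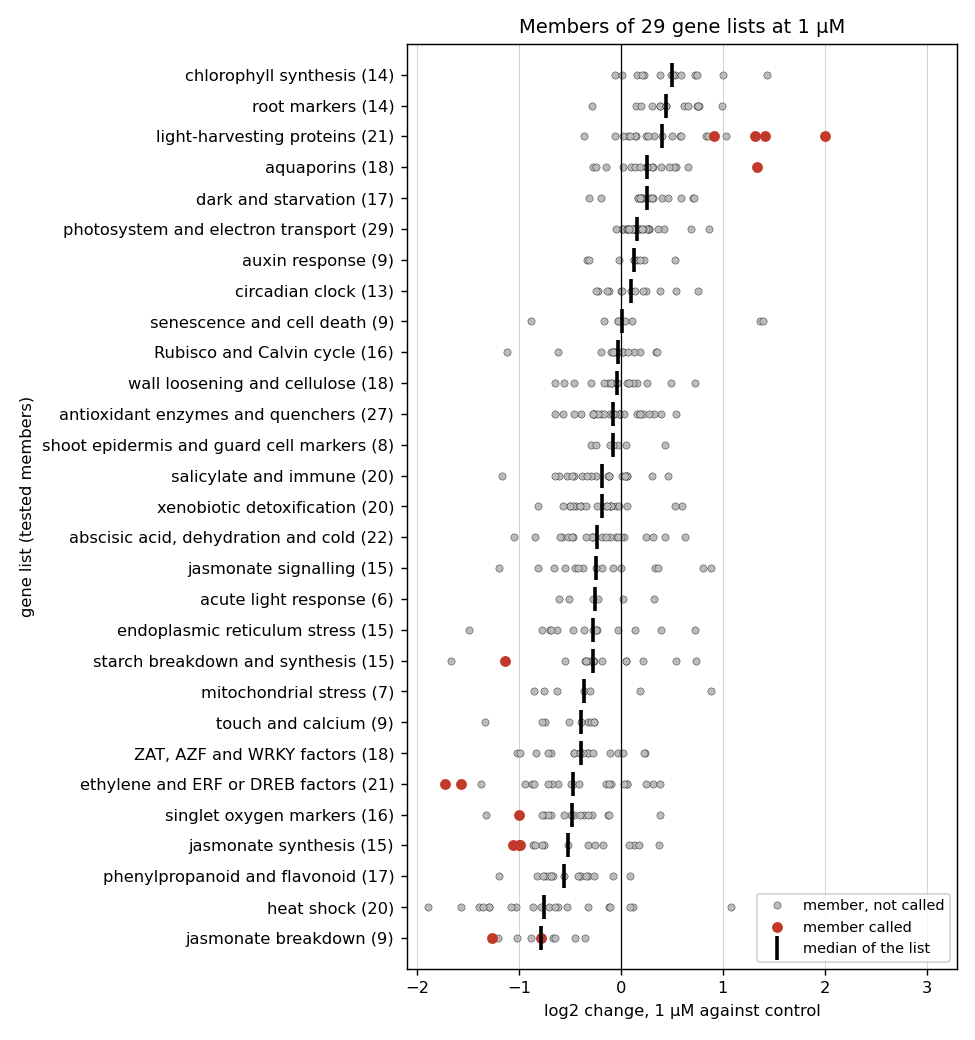
Each row is a gene list, with the number of tested members in brackets; points are log2 changes of members at 1 µM against control, red where called, and the black bar is the median. Jasmonate breakdown has the lowest median, -0.78, and chlorophyll synthesis the highest, 0.50. The median over all genes tested is 0.002. Without control replicate 2, jasmonate breakdown is at -0.59, above heat shock at -0.80, and chlorophyll synthesis at 0.37, below root markers at 0.55.

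Lists with a median above 0 included root markers and dark and starvation genes. Of the 14 root markers 0 were called, 13 had an estimate above 0 and the median log2 change was 0.44. PRP3, a wall protein of root hairs, was at 16.1, 12.1 and 19.4 CPM in controls and 31.6, 20.6 and 39.6 CPM at 1 µM (0.99 ± 0.32). NRT2.1, a root nitrate transporter, stood at 0.77 ± 0.24 and the peroxidase gene PER64 at 0.76 ± 0.28. Of the 17 dark and starvation genes tested 0 were called, 15 had an estimate above 0 and the median was 0.26, or 0.12 without control replicate 1 and 0.41 without control replicate 3. DIN6, an asparagine synthetase gene induced in darkness, stood at 0.46 ± 0.16 and MCCA, of leucine breakdown, at 0.59 ± 0.16. In bulk samples, more cells of a type and more RNA per cell cannot be told apart.

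The biological coefficient of variation, the spread between replicates beyond counting error, was 33.5% in the libraries at 100 µM alone, 20.6% over all 15 libraries and 17% over the 12 left when those at 100 µM were set aside. In the fit of those 12 libraries 56 of 9716 genes were called, 10 higher (0.103%) and 46 lower (0.473%), and all 19 genes above were among them. All 56 had groups that did not overlap, which choosing genes by this test on the same libraries favours. Among genes tested with all 15 libraries, 6.18% lay wholly above the controls and 7.23% wholly below. The further rises were those of LHCA4, LHCB3, AT2G15880, BBX28 and FTM1. LHCB3 had an SE of 0.16 there and an edgeR adjusted p of 0.00582, while the authors' deposited DESeq2 adjusted p for it was 0.07. BBX28 (AT4G27310), a B-box protein, was at 9.69, 13.3 and 7.56 CPM in controls and 26.3, 24 and 24.9 CPM at 1 µM, and FTM1 (AT1G43800), a stearoyl-ACP desaturase, was at 16.1, 23.1 and 27.5 CPM and at 62.1, 56 and 61.4 CPM. AT2G15880, of a leucine-rich repeat family, was at 149 to 203 CPM and 277 to 368 CPM.

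By the size of the change, the largest further falls in the 12 libraries included those of AT1G53540, the uncharacterized AT1G47130 (-1.64 ± 0.41 with all 15 libraries) and the small heat shock gene HSP17.6A (-1.60 ± 0.40). The rest were CORI3, annotated in the tyrosine transaminase family (-1.41 ± 0.29), HSP17.4 (-1.39 ± 0.36), the diacylglycerol kinase gene DGK2 (-1.38 ± 0.32), ERF13 and AT2G17660 of the RIN4 family (-1.36 ± 0.31). Of the heat shock list, 3 members were called lower there, AT1G53540, HSP70 and HSP17.4; this HSP17.6A (AT5G12030) is not on the list. Of the jasmonate breakdown list the calls became 3 with CYP94C1 (edgeR adjusted p = 0.0155). DIC1, a mitochondrial dicarboxylate carrier, and the dehydrin gene ERD10 were called as well, at 15-library estimates of -0.85 ± 0.18 and -0.58 ± 0.13. With the first digit of the sample code as a further term, 39 genes were called, 15 of the 19 among them. That term rests on control replicate 2, the only one of the 12 libraries whose digit differs within its group. An adjusted p under 0.05 stood beside 109 of the 14190 genes in the authors' deposited table, 21 higher and 88 lower at 1 µM. All 19 genes called here and 52 of the 56 were among them. Both sets of values come from counts of the same libraries, so this overlap is not independent support.

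The single libraries mattered for the count. It was 5 without 1 µM replicate 1, 9 without replicate 2 and 1 without replicate 3, and 9, 3 and 7 without control replicates 1, 2 and 3. The 1 gene left without 1 µM replicate 3 was LHCB1.1. Without 1 µM replicate 2, the library that stood apart, 8 of the 19 genes were called. Without control replicate 2, which leaves only libraries whose sample code starts with 7, 2 of the 19 were called, and no estimate of the 19 changed sign in any fit.

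The neighbouring doses shared the light regime of 1 µM. Between 1 and 0.1 µM, edgeR called 0 of 10374 genes (0%), with 688 at an unadjusted p under 0.05, limma-voom called 0 and DESeq2 called 19. The smallest edgeR adjusted p was 0.173. For each of the 19 genes the mean at 0.1 µM lay between the control mean and the mean at 1 µM. The choice of genes with distant groups favours that order, and it is given as a description. LHCB1.1 was at 1480, 1550 and 1170 CPM at 0.1 µM, above all controls and below all libraries at 1 µM. Its log2 change from 0.1 to 1 µM was 0.98 ± 0.20 (edgeR adjusted p = 0.26). CT-BMY was at 220, 229 and 260 CPM at 0.1 µM, which overlaps with the 1 µM libraries and lies below all controls. AOC3, at 249, 254 and 246 CPM, lay instead within the range of the controls, with a log2 change of -0.99 ± 0.17 from 0.1 to 1 µM (edgeR adjusted p = 0.173).

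Between 1 and 10 µM edgeR called 33 genes higher at 1 µM (0.318%) and 59 lower (0.569%). Of the 19 genes above, 15 were among these, 4 higher and 11 lower. At 10 µM, LHCB1.1 was at 720 ± 191 CPM (SD, n = 3), LHCB2.1 at 78.6 ± 11.6 CPM, CYP94B3 at 140 ± 10.9 CPM and AOC3 at 318 ± 48.4 CPM. The log2 change from 10 to 1 µM was 1.94 ± 0.21 for LHCB1.1 (edgeR adjusted p = 8.17e-05) and -1.34 ± 0.17 for AOC3 (edgeR adjusted p = 0.000976). The 4 not called were PIP3, UBQ11, DDF1 and AT1G51090. The genes were chosen for their level at 1 µM, which both comparisons share, so these calls are not independent of the first. Sample codes start with 7 at 1 µM and with 8 at 10 µM in every library, so dose and sample code cannot be told apart within this pair. With the code digit as a term, estimated with the controls' help in the 12 libraries, 11 genes were called between the doses.

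At 100 µM the 19 genes did not return to the level of 10 µM alike. CYP94B3 was at 39.3 ± 6.06 CPM, AOC3 at 73.8 ± 7.38 CPM, AT1G22810 at 1.9 ± 1.22 CPM and UBQ11 at 1100 ± 207 CPM (SD, n = 3), each below its mean at 1 µM. PIP3 was at 154 ± 37.8 CPM and LHCB2.1 at 443 ± 40.7 CPM, above theirs, and LHCB1.1 at 1840 ± 324 CPM, between the controls and 1 µM. AT5G05600 was at 655 ± 54.6 CPM, above the controls. These are levels set side by side, with no test between 1 and 100 µM. Sample codes start with 1 in every library at 100 µM and in no other group, so dose and sample code cannot be told apart there.

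**Figure D5:**
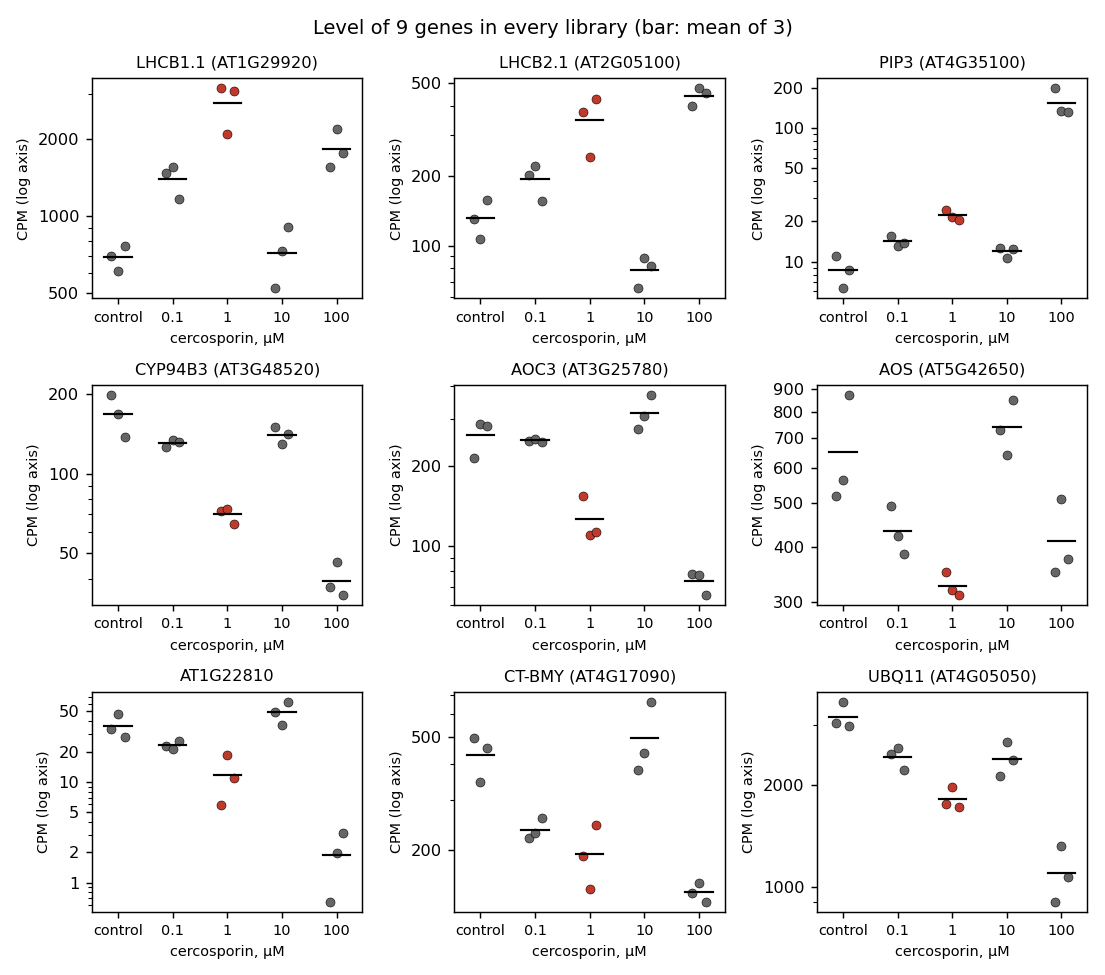
CPM on a log axis in every library for 9 of the 19 called genes, by cercosporin dose, with 1 µM in red and a bar at each group mean. LHCB1.1 is at 612 to 765 CPM in controls and 2090 to 3150 CPM at 1 µM, and its mean at 10 µM is 720 CPM; AOC3 falls from 215 to 287 CPM to 110 to 154 CPM and has a mean of 318 CPM at 10 µM.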

How the data were processed

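Gene expression was measured in whole seedlings by bulk MARS-seq, a 3'-end protocol. Per the submitters' processing notes, reads were handled with bcl2fastq 2.17.1.14, cutadapt 1.8.3, STAR, HTSeq and DESeq2; the genome build, the annotation and the strand setting were not stated there. Counts were deposited raw, and the deposited table is named as having no filter on molecular identifiers, so amplification copies may be included. The same table gives the authors' log2 fold changes with their p-values. Its comparison names carry group numbers, and the pair used for 1 µM over control was identified by its fold changes (r = 1, across genes, with those computed here).

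Testing used edgeR 4.0.16 in R 4.3.3 with TMM factors, filterByExpr by group (minimum count 10), a group term over all 15 libraries, and a threshold of 0.05. CPM are counts over TMM-adjusted totals. The SE of a log2 change is its absolute value divided by the square root of the test's F statistic. Alternatives included DESeq2 1.42.0 and limma 3.58.1. The code was tested on simulated data. Near-identical copies are genes whose last 500 transcript bases align over at least 75 bases at 90% identity or more (blastn 2.17.0); 14103 of 14190 identifiers matched the RefSeq TAIR10.1 table.

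Genes named are those called with all 15 libraries, up to 6 of the smallest p in each of 29 lists (all light-harvesting and jasmonate members may be named), and the 10 largest rises and falls in the 12-library fit. The comparison, its lists and the motifs were chosen with earlier results of these data known.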

Additional observations from a re-analysis of the deposited data

How the results depend on the processing

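The 1 µM against control count of 19 stayed within 1.5 times with DESeq2's size factors, another low-count filter or none, limma-voom, the 2 groups alone and thinning. It was 11 with upper quartile factors, 76 by DESeq2, 56 without the 100 µM libraries, 39 with the code digit as a term there, 7 when genes with near-identical copies were left out and 8 with light-harvesting copies summed, an alternative chosen after seeing the data. Leaving out 1 library gave 1 to 9. Against 0.1 µM, where edgeR called 0, DESeq2 gave 19, the 2 groups alone 17, the 12 libraries 3 with or without the code digit and thinning 1, and leaving out 1 library gave 0 throughout. Against 10 µM the count of 92 became 216 by DESeq2, 270 with the 2 groups alone, 232 in the 12 libraries, 11 with the code digit and 53 after thinning, and 14 to 67 leaving out 1 library. The cause was not tested. LHCB1.3 changed sign in 3 fits, at -0.1 with the code digit, -0.02 without 1 µM replicate 1 and -0.11 without control replicate 2; fits leaving out 1 library ranged from -0.11 to 0.16. Of the other alternative values of named genes, 1163 kept direction and side of the threshold, 129 lost the threshold and 74 gained it. Only values of the 19 called genes could lose it, while the 1163 include genes that passed in neither fit. Of the list medians, 83 values moved by at least the SD of that list's median across the 3 libraries at 1 µM, and 468 did not. The spread between controls was not part of that measure. Leaving out 1 library changed the sign of the median in 7 lists, the Calvin cycle and antioxidant lists and 5 more. Salicylate (-0.19) and mitochondrial stress (-0.36) became 0.35 and 0.2 without control replicate 2. The clock list (0.1) became -0.02 without control replicate 2 and -0.08 without 1 µM replicate 1, and senescence (0.01) reached -0.02 without 1 µM replicate 1 and -0.01 without control replicate 1. Wall loosening (-0.04) became 0.08 without 1 µM replicate 2, 0.01 without control replicate 1 and 0.05 without control replicate 2. With the code digit the medians were -0.19 for singlet oxygen markers, -0.29 for ERF and DREB, -0.19 for ZAT, AZF and WRKY, 0.36 for salicylate and 0.19 for mitochondrial stress. The digit term rests on control replicate 2, so these medians are not separate from those without that library. The light-harvesting median was 0.26 with copies summed, and that of chlorophyll synthesis 0.33 over members with a mean of at least 50 counts. Deviations from the group means correlated at 0.00307 to 0.0921 between same-numbered replicates of 1 µM and control, and at -0.0521 to 0.0362 between the others. With 3 libraries a side, these values cannot decide whether the numbers pair samples. The main fit used no pairing. With a replicate block the counts were 16, 0 and 99. The smallest library, of 834190 counts, limits what low genes can show.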

Other observations

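Several gene groups outside the main ones held few or no calls at 1 µM. Of 15 genes of endoplasmic reticulum stress 0 were called, 12 had an estimate below 0 and the median log2 change was -0.27, or -0.47 without 1 µM replicate 3. The chaperone genes CNX1 (-0.69 ± 0.16), BIP1 (-0.63 ± 0.16) and BIP2 (-0.70 ± 0.19) had the smallest p of that list. In each all 3 treated libraries lay below all controls, where 7.23% of all genes tested did. BIP1 and BIP2 are near-identical copies. Of 22 genes of abscisic acid, dehydration and cold 0 were called with all 15 libraries, 16 had an estimate below 0 and the median was -0.23, or -0.12 without control replicate 3. Antioxidant enzymes and quenchers, 27 genes tested, had 0 calls and a median of -0.08 that was 0.02 without 1 µM replicate 2. Xenobiotic detoxification, 20 genes tested, had 0 calls and a median of -0.19. That median was -0.05 without control replicate 2, where the list summed to 7300 CPM against 5680 and 5560 CPM in the other controls, and it was -0.30 without 1 µM replicate 1, -0.32 without control replicate 3 and -0.13 without 1 µM replicate 3.

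RBCS1B (AT5G38430), a small subunit of Rubisco, was at 2150, 843 and 1170 CPM in controls and 625, 610 and 680 CPM at 1 µM. Its log2 change was -1.12 ± 0.29 with an edgeR adjusted p of 0.177 over all 15 libraries and 0.0445 in the 12 libraries, and control replicate 1 lay far above the other controls.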
